A study of Homo sapiens with 2 samples.

Results

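The genes described here are 7 markers of the fetal liver and of liver progenitor cells: AFP, GPC3, IGF2, MDK, EPCAM, PROM1 and SOX9. They were chosen by gene symbol, and all 7 had a value among the 11511 genes with values in the deposited table. The RNA came from Hep3B, an established human hepatocellular carcinoma line supplied by ATCC, and was measured by RNA-seq. There was 1 library of Hep3B cells left without treatment (control) and 1 library of Hep3B cells treated with A4368, a compound known here by that code name, for 24 h at 25 µM. No vehicle is named for the control in the sources used here. The question put by the study is what exposure to the compound does to the transcriptome of these cells.

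A fetal hepatoblast gives rise to both hepatocytes and bile duct cells. As hepatocytes mature they switch off a set of fetal genes, among them AFP and GPC3, and hepatocellular carcinomas often express these oncofetal genes again. EPCAM, PROM1 and SOX9 are kept by bile duct and progenitor cells and are not typical of mature hepatocytes.

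Levels are in FPKM, fragments scaled to the length of the transcript and to the mapped fragments of the library, so that levels of different genes can be compared. The library ratio of a gene is log2((A4368 FPKM + 1)/(control FPKM + 1)), and a fold quoted in the text is the quotient of the FPKM values without the added 1. With 1 library per group there is no spread between cultures, no p-value and no error on any value, and each difference is one between these libraries only. In RNA from a whole culture, fewer cells expressing a gene and less RNA per cell cannot be told apart.

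The RefSeq promoter table (GRCh38.p14) matched AFP and PROM1 of the 7 genes, and both are on chromosome 4. Each window runs from 250 bases before to 50 after an annotated start and is printed 5′ to 3′ on the gene's own strand. The windows are shown for these genes because no other marker had an entry. Both genes were lower with A4368, and their windows differ in base composition and in the TATA box. Whether that difference bears on the values was not tested. In the AFP window, at chr4:73435971-73436270 on the plus strand, capitals mark TATAAA, the TATA box, and CCAAT, printed as ATTGG where the match is on the other strand. In the PROM1 window, the most upstream of 4 annotated ones, at chr4:16083974-16084273 on the minus strand, capitals mark CCAAT alone, since no TATAAA was found.
AFP: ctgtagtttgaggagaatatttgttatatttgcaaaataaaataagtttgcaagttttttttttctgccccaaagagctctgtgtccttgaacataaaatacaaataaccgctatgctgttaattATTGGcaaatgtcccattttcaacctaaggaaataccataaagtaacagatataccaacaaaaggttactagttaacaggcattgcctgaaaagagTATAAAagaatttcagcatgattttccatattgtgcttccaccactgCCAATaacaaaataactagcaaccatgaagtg
PROM1: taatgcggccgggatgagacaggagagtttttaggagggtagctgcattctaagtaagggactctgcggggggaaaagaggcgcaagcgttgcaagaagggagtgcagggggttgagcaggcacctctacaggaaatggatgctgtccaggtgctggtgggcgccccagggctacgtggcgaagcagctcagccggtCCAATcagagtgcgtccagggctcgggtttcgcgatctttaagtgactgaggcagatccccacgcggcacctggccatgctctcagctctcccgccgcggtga

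The AFP window held 33.0% G and C bases and 1 CG dinucleotide, against a median of 14 CG dinucleotides over all 35116 promoter windows. Counted from the annotated start, its TATAAA began at position -29. Its matches to CCAAT began at -125 on the other strand and at 19 on the gene's strand, so CCAAT occurs in both printed windows. TATAAA on the gene's strand was found in 7.33% of all windows. The printed PROM1 window held 60.7% G and C bases and 18 CG dinucleotides, and its CCAAT, found on either strand in 34.6% of windows, began at position -53. Of the other PROM1 windows, 2 held GGGCGG, the GC box, which 45.0% of windows hold on either strand. Neither GGAATG, the core of sites of the TEAD factors, nor TGGGAA, that of the Notch effector RBPJ, was found on either strand in the AFP window or the 4 PROM1 windows, against 14.0% and 24.0% of all windows. These matches describe letters only, and which PROM1 start Hep3B cells use was not tested.

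Of the 7 markers, 6 had lower values with A4368 and 1, IGF2, was level. Only SOX9 was lower by at least 1.5-fold on the log2 scale, and none was higher by that size. Over the 11238 genes whose mean reached 1 FPKM, a filter that all 7 markers passed, 2.12% were lower and 1.08% higher by at least 1.5-fold, that is 238 lower and 121 higher genes. When each library was rescaled to the same sum without its 50 highest genes, the split was 197 lower (1.75%) and 160 higher (1.42%). A ratio below 0 was found in 48.0% of all these genes, or 39.1% after the rescaling. It was more common among highly expressed genes, at 73.0% of the 921 whose mean reached 100 FPKM, or 58.2% after the rescaling, a range that holds every marker but SOX9. The counts of lower genes in the lists below are read against these shares. So is the count of markers with lower values, 6 of 7 under either scaling. It includes GPC3, whose ratio was close to 0, at -0.06 as deposited and -0.01 after the rescaling. The median ratio of the 7 markers was -0.27, against 0.01 over all genes and -0.07 over those at 100 FPKM or more.

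**Figure D1:**
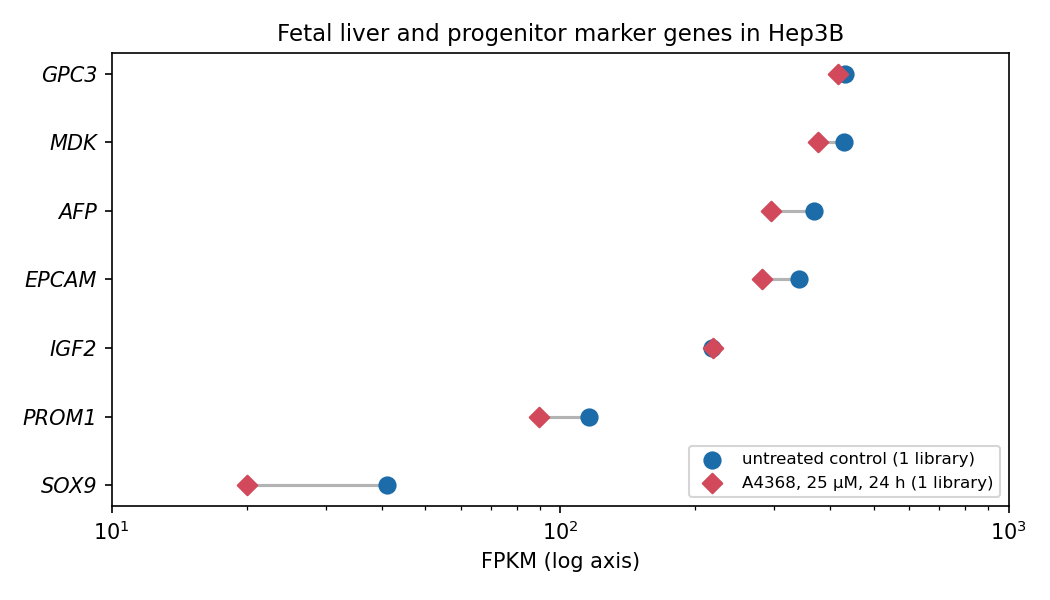
FPKM (log axis) of the 7 markers in the untreated control library (circles) and the A4368 library (diamonds), 1 library each. The pair of symbols is widest apart for SOX9, at 41.2 and 20.1 FPKM, and overlaps for IGF2, at 218 and 219 FPKM.

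The order of the levels was the same in both libraries, with GPC3 highest, then MDK, AFP, EPCAM, IGF2, PROM1 and SOX9. GPC3 and MDK were almost equal in the control, at a ratio of 1.01, and stood at a ratio of 1.11 with A4368. Without replicates, no neighbours in this order can be shown to differ beyond their spread. GPC3 held rank 174 of the 11511 genes by level in the control and rank 169 with A4368, whereas SOX9 held rank 2341 and rank 4385.

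Gene positions in parentheses are those of GENCODE release 29 on GRCh38 and were not used to compute any value. AFP, which encodes alpha-fetoprotein, the main plasma protein of the fetus (chr4:73431138-73456174, plus strand), was at 368 FPKM in untreated cells and 295 FPKM with A4368. The A4368 value was 1.25-fold lower, with a log2 ratio of -0.32. Of 209 other genes whose mean lay within 1.5-fold of that of AFP, 12 had a lower ratio, so AFP sat near the low end of genes of its level. Set against the adult counterpart ALB, AFP stood at 40.1 FPKM per 1000 FPKM of ALB in the control and 33.0 with A4368, a comparison that does not depend on the scaling of the libraries.

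MDK encodes midkine, a heparin-binding growth factor of the embryo (chr11:46380756-46383837, plus strand). It was at 429 FPKM in untreated cells and 376 FPKM with A4368, 1.14-fold lower with a log2 ratio of -0.19. Among 167 genes of similar level, 30 had a lower ratio, so that this difference was well inside the range of such genes.

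IGF2 encodes insulin-like growth factor 2, an imprinted growth factor of the fetus (chr11:2129112-2158658, minus strand). It was at 218 FPKM in untreated cells and 219 FPKM with A4368, a log2 ratio within 0.01 of 0. Genes of similar level were on the whole slightly lower, and 244 of 336 had a lower ratio than IGF2. In GENCODE release 29, IGF2 shares 25.2% of its 31-base words with other genes, mostly with INS-IGF2, a readthrough gene on the same strand, and IGF2-AS lies antisense to it. The other markers share at most 3.77% of their words. The strandedness of the libraries is not given in the sources used here, so the IGF2 value may include reads of these neighbours.

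Among the surface proteins, GPC3, which encodes glypican-3, a heparan sulfate proteoglycan held in the membrane by a lipid anchor (chrX:133535745-133985895, minus strand), was at 432 FPKM in untreated cells and 416 FPKM with A4368. The difference was 1.04-fold, and 100 of 158 genes of similar level had a lower ratio. GPC3 thus lay near the middle of its level range, and the rescaling brought its log2 ratio from -0.06 to -0.01.

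EPCAM encodes an adhesion glycoprotein of epithelial and progenitor cells (chr2:47345158-47387601, plus strand). It was at 341 FPKM in untreated cells and 282 FPKM with A4368, 1.21-fold lower with a log2 ratio of -0.27. Of 222 genes of similar level, 21 had a lower ratio. PROM1 encodes prominin-1, a glycoprotein of membrane protrusions used as a stem cell marker (chr4:15963076-16084378, minus strand), and was at 116 and 89.5 FPKM. It was 1.30-fold lower with a log2 ratio of -0.37, and 33 of 849 genes of similar level had a lower ratio. EPCAM and PROM1 differed between the libraries by similar factors, and PROM1 amounted to 0.34 of the EPCAM level in the control and 0.32 with A4368.

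SOX9, which encodes a transcription factor of bile duct and progenitor cells (chr17:72121020-72126420, plus strand), was at 41.2 FPKM in untreated cells and 20.1 FPKM with A4368. It had the lowest level and the lowest ratio of the 7 markers, 2.05-fold lower with a log2 ratio of -1.003. Only 3 of 2231 genes of similar level had a lower ratio. The log2 ratio lay just past the 2-fold limit, which 0.436% of all genes passed downward, and just inside it when ratios were rescaled (-0.95) or centred on the median. SOX9-AS1, a noncoding gene, overlaps SOX9 on the opposite strand in GENCODE release 29. Without known strandedness, its reads from the overlap cannot be told apart from those of SOX9.

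**Figure D2:**
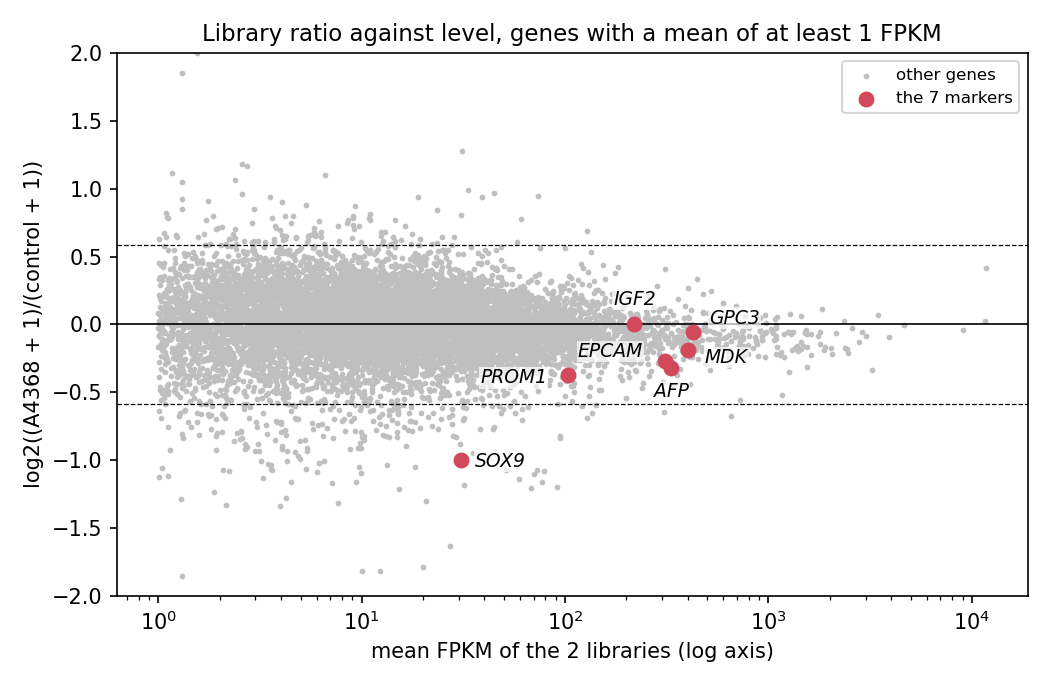
Library ratio, log2((A4368 + 1)/(control + 1)), against mean FPKM (log axis) for genes whose mean reached 1 FPKM, with the 7 markers as large points and dashed lines at 1.5-fold; 7 other genes lie beyond the vertical axis. SOX9 lies below the lower line, and AFP, EPCAM, PROM1 and MDK lie between that line and 0.

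The genes nearest to each marker in both levels were found by Euclidean distance on log2(FPKM + 1) over the 2 libraries. For AFP they were ID1, at 370 and 304 FPKM in control and A4368, and GNG5. For EPCAM they were HSPB1, at 335 and 282 FPKM, and SLIRP. PROM1 lay nearest to PDLIM1 and FLOT1, MDK to HINT1 and CCT3, GPC3 to UQCRH and PTGES3 and IGF2 to CUTA and NEDD8. The first gene of each of these 4 pairs was within 0.05 log2 units. SOX9 had the sparsest surroundings, with NAT8 at 39.8 and 21.2 FPKM and CXCL8 at 44.8 and 19.1 FPKM as the nearest genes. With 2 libraries such likeness is only closeness of both values.

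Relatives of the markers did not all share their ratios. In the albumin family, AFM, which encodes afamin, was at 5.25 and 1.97 FPKM, 2.66-fold lower, and GC, which encodes the vitamin D binding protein, at 230 and 179 FPKM, 1.28-fold lower. ALB itself, at 9183 and 8930 FPKM, differed by 1.03-fold and lay slightly above 0 after the rescaling. Thus AFP, AFM and GC were lower relative to ALB. Among glypicans, GPC3 exceeded GPC6, the next highest, by 14.0-fold in the control and 13.9-fold with A4368. GPC1 was 1.17-fold higher, and GPC4, GPC5 and GPC6 were within 1.11-fold of the control, GPC6 changing sign with the rescaling. Of 7 SOX genes measured, 5 were lower. SOX4, a factor of progenitor cells, was at 129 and 91.2 FPKM and SOX6 at 7.27 and 5.38 FPKM, while SOX5 was 1.61-fold higher at 2.32 and 3.72 FPKM. The fold of SOX9 was larger than that of any other SOX gene measured.

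Genes of the biliary and ductal list, which holds SOX9 itself, were mostly lower. Of the 18 genes of that list 10 were measured, SOX9 included. Of these 8 were lower, with a median of -0.40, and SOX9 alone passed 1.5-fold. The count and the median thus include the marker with the lowest ratio. Of all genes 48.0% were lower, and 73.0% of those whose mean reached 100 FPKM, a range that holds KRT19. KRT19, a keratin of bile duct cells, was at 279 and 206 FPKM. GGT1, which encodes a gamma-glutamyltransferase, was 1.58-fold lower in plain ratio and PKHD1, which encodes fibrocystin of bile duct cilia, 1.54-fold lower, both from levels under 10 FPKM. ONECUT1 and ONECUT2, liver and biliary factors, were the members with higher values. KRT7, a further bile duct keratin, had no value in the table used here.

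Of other progenitor and stem cell markers 7 of 9 were lower, against 48.0% of all genes and 73.0% of those whose mean reached 100 FPKM. The list holds genes of that higher range, such as KRT18 and KRT19. Its median was -0.21, and 1 gene passed 1.5-fold. That gene was ICAM1, which encodes an adhesion molecule also induced by inflammatory signals, at 21.7 and 11.2 FPKM. ANPEP, a surface peptidase, was 1.25-fold lower and KRT18 1.24-fold lower. The list is mixed, since LGR4, a receptor of R-spondins, was at 56.3 and 65.4 FPKM.

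Regulators known to act on AFP showed no common direction. Of 15 measured, 6 were lower and 9 higher (5 and 10 after the rescaling), none by 1.5-fold, and the median was 0.04. ZHX2, a repressor of AFP after birth, was at 9.38 and 6.38 FPKM, and NR2F2, a nuclear receptor, at 25.4 and 17.7 FPKM. HNF4A, a main hepatocyte factor, was at 103 and 121 FPKM and CEBPB, a factor of the acute phase response, at 9.12 and 12.1 FPKM.

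**Figure D3:**
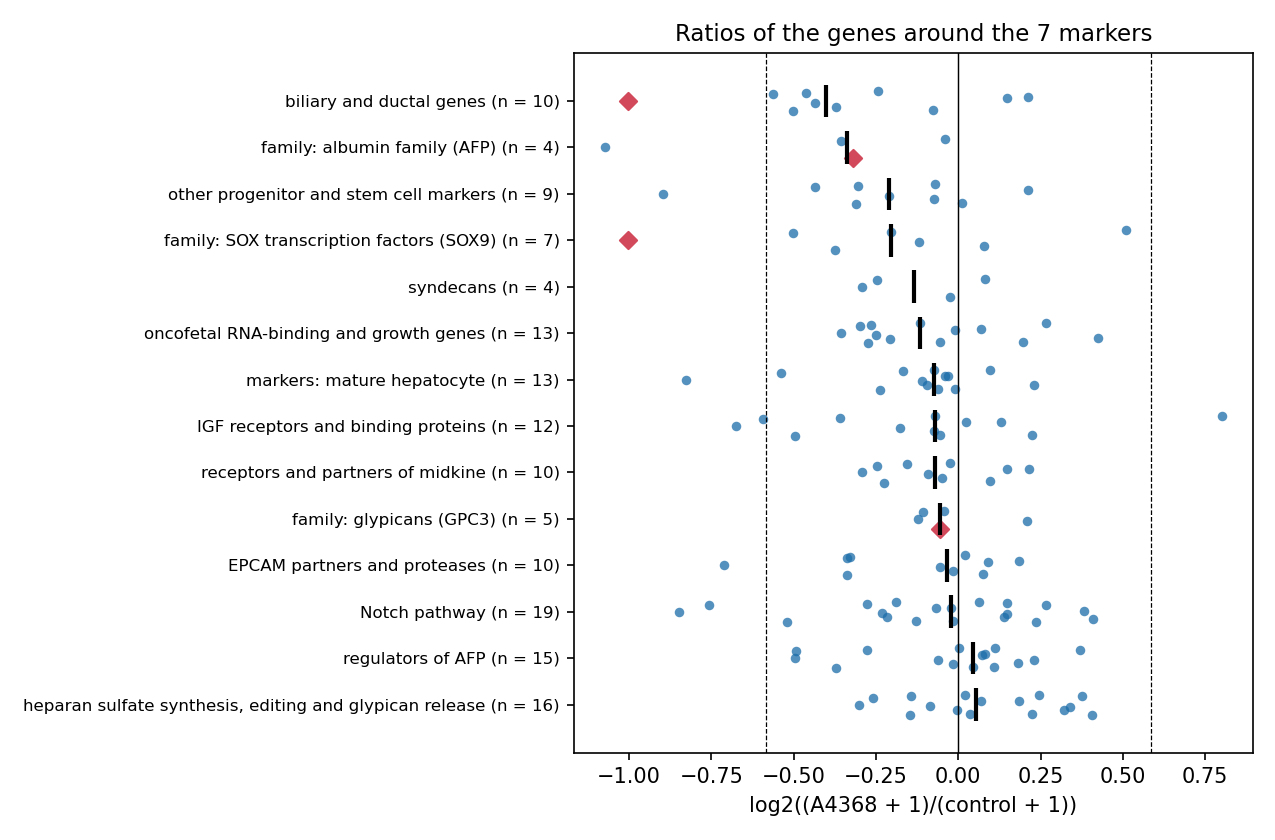
Library ratios, log2((A4368 + 1)/(control + 1)), of the genes in each list with at least 4 measured members; circles are single genes, diamonds are the 7 markers where a list holds them, black bars are medians and dashed lines are at 1.5-fold. The biliary and ductal list has the lowest median, at -0.40, and heparan sulfate synthesis the highest, at 0.05.

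Oncofetal genes outside the 7 markers were lower in 9 of 13 cases (8 after the rescaling), none past 1.5-fold, and the median was -0.12. The RNA-binding protein genes IGF2BP3 and IGF2BP1, whose products bind IGF2 messenger RNA, were at 80.8 and 62.9 FPKM and at 40.7 and 32.9 FPKM. LIN28B, which blocks maturation of let-7 microRNAs, was 1.22-fold lower. CDKN1C, an imprinted inhibitor of the cell cycle, was 1.34-fold higher at 156 and 210 FPKM.

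The receptors for IGF2 differed little, IGF1R being at 7.95 and 6.93 FPKM and IGF2R, which clears IGF2, at 25.3 and 24.0 FPKM. Across 12 receptors, adaptors and binding proteins, 8 were lower with a median of -0.07. IGFBP3, the main carrier of IGFs in plasma, was 1.55-fold lower at 19.5 and 12.6 FPKM, past the 1.5-fold limit as deposited and inside it after the rescaling. IGFBP7 was 1.43-fold lower. IGFBP1 and IGFALS also passed 1.5-fold in opposite directions from levels under 3 FPKM, IGFBP1 at 1.09 and 2.64 FPKM and IGFALS at 1.78 and 0.741 FPKM.

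The sugar chains that GPC3 carries are made by a shared set of enzymes. Of 16 measured genes of heparan sulfate synthesis, editing and glypican release, 6 were lower and 10 higher, with a median of 0.05 and none past 1.5-fold. B3GAT3 and EXT2, which build the linker and the chain, were 1.34-fold and 1.32-fold higher, and GLCE and HS6ST1, which modify the chain, were 1.31-fold and 1.28-fold higher. Midkine binds several receptors, and 7 of 10 measured were lower (5 after the rescaling), none past 1.5-fold, and the median was -0.07. The syndecans, which also carry heparan sulfate, were lower in 3 of 4 cases (2 after the rescaling), with SDC4 at 111 and 93.8 FPKM, SDC3 at 6.65 and 5.25 FPKM, SDC1 at 53.7 and 52.7 FPKM and SDC2 at 88.3 and 93.5 FPKM. NCL, which encodes nucleolin, was at 207 and 177 FPKM and LRP1, an endocytic receptor, at 8.85 and 10.4 FPKM.

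Genes of a list of EPCAM partners and proteases were lower in 6 of 10 cases (5 after the rescaling), and the median was -0.04. TSPAN8, a tetraspanin, passed 1.5-fold at 22.0 and 13.1 FPKM. The junction gene CLDN1 was at 575 and 455 FPKM. The protease gene ST14 and its inhibitor SPINT1 were 1.28-fold and 1.26-fold lower.

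Notch signalling, which in the liver steers hepatoblasts to the biliary fate, was followed in 19 measured genes. Of these 11 were lower and 8 higher (9 and 10 after the rescaling), and the median was -0.02. JAG1, a Notch ligand, was 1.71-fold lower at 56.3 and 32.9 FPKM. MFNG, a glycosyltransferase that modifies Notch, was 2.14-fold lower at 5.09 and 2.38 FPKM, and these were the members past 1.5-fold. The Notch target HES1 was at 42.7 and 36.7 FPKM, HES4 was 1.49-fold lower and the receptor gene NOTCH1 was at 2.18 and 3.22 FPKM.

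Markers checked the label of the cells. Of 20 genes of mature hepatocytes, 13 were measured, 11 of them lower (8 after the rescaling). Of all genes whose mean reached 100 FPKM, a range that holds ALB and ASGR2, 73.0% were lower (58.2% after the rescaling). The median of the 13 was -0.07, and HPD alone passed 1.5-fold, at 19.3 and 10.4 FPKM. ASGR2, a subunit of the asialoglycoprotein receptor, was 1.46-fold lower. TAT, CYP3A4 and ARG1, genes of mature hepatocytes, had no value in the table used here. For endothelial cells 1 of 10 markers had a value, EGFL7 at 20.0 and 22.8 FPKM. For stellate cells and fibroblasts 3 of 10 had values, summing to 19.9 FPKM in untreated cells and 14.2 FPKM with A4368, and for leukocytes 3 of 14, summing to 50.1 and 39.9 FPKM. Of the leukocyte markers, LYZ, which encodes lysozyme, was past 1.5-fold at 17.6 and 9.48 FPKM, while CD68 was at 30.0 and 27.9 FPKM and CD14 at 2.50 and 2.46 FPKM. Of the stellate cell and fibroblast markers, LUM, which encodes the matrix protein lumican, was at 17.9 and 11.9 FPKM with a log2 ratio of -0.55, just inside 1.5-fold, and RGS5 was at 0.977 and 1.64 FPKM. PECAM1, COL1A1 and PTPRC, which define these cells, had no value, nor did any of 8 markers of pluripotent cells. The part of these genes in the results was not tested.

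The low ratio of SOX9 and the near-zero ratios of IGF2 and GPC3 held their order under each processing setting tried. The rescaling moved every marker up by about 0.05 log2 units, which left GPC3 just below 0, and a pseudocount of 5 moved SOX9 most.

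**Figure D4:**
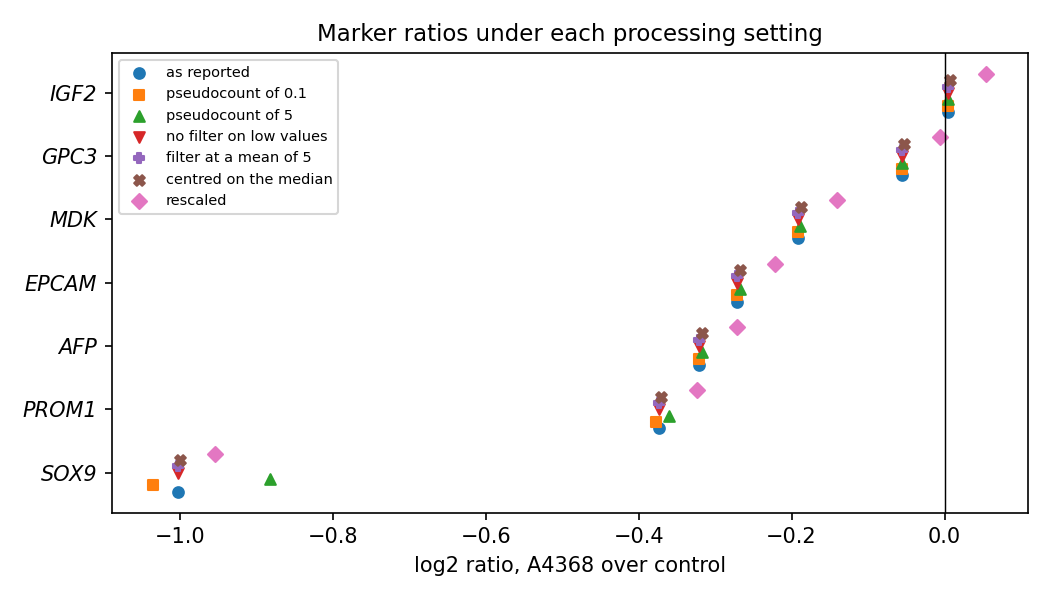
Log2 ratio of A4368 over control for the 7 markers under the reported processing and 6 alternatives (symbols). SOX9 ranges from -1.03 to -0.88 and stays apart from the other markers, whose ratios lie between -0.38 and 0.05.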

How the data were processed

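RNA-seq of 1 control and 1 A4368 library was used. Per the submitters' processing notes, the tools were TopHat2 2.0.12, Bowtie2 2.2.3 and Cufflinks, with the build hg19; for the annotation and the Cufflinks version, nothing was stated in the labels read. The deposited table names no unit, and its values, deposited by the authors and not whole numbers, were read as FPKM. Of 24302 lines, 11511 held both values, and the lowest mean was 0.496 FPKM, so that low genes had been removed before deposit. Depth is unknown, and no interval can be given. Nor could depth be read from the low values (1688 genes averaging below 3 FPKM), which showed no steps of whole reads. The absence of steps says nothing about depth.

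Ratios used a pseudocount of 1 and kept the 11238 genes whose mean reached 1 FPKM, in Python 3.11.15 with pandas 2.3.3 and numpy 2.4.6; the procedure was tested on simulated data. The pseudocount understates changes of low genes. Size limits were 1.5-fold and 2-fold. A list's median and counts are given without a test. Named from each list were up to 4 measured genes with the largest absolute ratio, every one in a family with up to 6 measured, and the 2 genes nearest to each marker. Outside this rule, ONECUT1, ONECUT2, LGR4, IGF1R, IGF2R, HES1 and some markers without a value were named for their roles after their values were seen. Some genes of the lists are not reported here. The members and lists were chosen with earlier results of these data known. Shared sequence and gene positions came from GENCODE release 29 (GRCh38), matched by symbol, and promoters from RefSeq; the table itself has no coordinates.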

Additional observations from a re-analysis of the deposited data

How the results depend on the processing

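Under pseudocounts of 0.1 and 5, no filter, a filter at a mean of 5 FPKM, centring on the median ratio and equalising the library sums computed without the 50 highest genes (the rescaling), 6 of the 7 markers were lower and 1 passed 1.5-fold each time. The rescaling moved the median ratio of all genes from 0.01 to 0.06 and that of the markers from -0.27 to -0.22. Their mean was -0.32, and their median without SOX9, an alternative chosen after seeing the data, was -0.23. SOX9 was at -0.88 with a pseudocount of 5, and past 2-fold only as deposited, without a filter, with the filter at 5 FPKM or with a pseudocount of 0.1. Of 12 lists with at least 5 measured genes, 10 had a median below 0 as reported and 8 after the rescaling. The filter at 5 FPKM left 11 such lists, 9 of them with a median below 0. The biliary median was -0.27 with a pseudocount of 5. Summing IGF2 with INS-IGF2 was not run, since INS-IGF2 had no value in the table used here. No paired analysis was possible because each group has 1 library. No replicate could be left out, and depth, which limits the precision of every value, is unknown.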

Other observations

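The albumin gene cluster on chromosome 4 held neighbours with unequal ratios. In GENCODE release 29 (GRCh38), ALB ends 9.7 kb before AFP begins and AFM begins 25.5 kb after AFP ends, with no other protein-coding gene between them. That beginning of AFP, at 73431138, lies upstream of the printed RefSeq promoter window (chr4:73435971-73436270). The gap to ALB is thus not counted from the start of that window. All 3 genes lie on the plus strand. ALB was 1.03-fold lower, AFP 1.25-fold lower and AFM 2.66-fold lower with A4368, so that the fold was larger for each gene further along the cluster, AFM being at a level under 6 FPKM and ALB lying slightly above 0 after the rescaling. GC, on the same chromosome 1627 kb away, kept its level relative to AFP, which was 1.60 times GC in the control and 1.64 times with A4368.

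On chromosome 11, IGF2 and CDKN1C lie 725 kb apart on the minus strand in an imprinted region. IGF2 was level at 218 and 219 FPKM, while CDKN1C was at 156 and 210 FPKM. CDKN1C thus stood at 0.71 and 0.96 of the IGF2 level. The transcription factor SOX9 amounted to 0.40 of the level of HNF4A in the control and to 0.17 with A4368.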
